A study of Mus musculus with 16 samples.

Results

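Transcription factor genes that set secretory fate or intestinal identity were followed in Paneth cells sorted from the small intestine of mice (C57BL/6J per the methods of the study). The 10 genes, like the gene lists used below, were chosen with earlier results of these data known. They were picked by name from the 55414 genes in the deposited table of read counts. Of these, 6 belong to the secretory lineage (Atoh1, Gfi1, Spdef, Bhlha15, Creb3l1 and Foxa2) and 4 to intestinal and regional identity (Cdx2, Hnf4a, Hnf4g and Gata4). All 10 passed the filter on low counts that left 11809 tested genes.

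Every mouse received 2 injections. The first was PBS, the vehicle, or DEX, the usual abbreviation of the glucocorticoid dexamethasone, which the sources used here do not spell out. The second, 1 h later, was PBS or tumor necrosis factor (TNF), and cells were taken 3 h after it. Named by these injections, the groups without DEX are PBS+PBS and PBS+TNF and those with it are DEX+PBS and DEX+TNF, each with 4 libraries, and no group carried a mutation per the labels. Doses and ages are not given in the sources used here. The methods of the study describe cells of individual mice, and animals of both sexes over its datasets as a whole. They do not give the sex by dataset. The labels themselves do not say whether libraries within a group came from separate animals, so p-values measure the spread between these libraries.

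Paneth cells sit at the base of the intestinal crypts and release antimicrobial proteins. An epithelial progenitor takes the secretory path when Notch signaling is low, because the Notch effector Hes1 represses Atoh1. ATOH1 then starts the secretory program, GFI1 acts below it, SPDEF and FOXA2 shape secretory cell types, and BHLHA15 (also called MIST1) and CREB3L1 enlarge the secretory machinery of the mature cell. The identity factors work across cell types: CDX2 keeps the epithelium intestinal, HNF4A and HNF4G drive genes of the absorptive program, and GATA4 marks the proximal part of the small intestine.

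After TNF alone, 3 of the 6 secretory genes fell, and none of the 4 identity genes passed the test. Of all tested genes, 5.35% were called lower and 12.5% in either direction, at an adjusted p under 0.05 in edgeR. Bhlha15 fell 6.19-fold, Gfi1 4.14-fold and Foxa2 3.40-fold, whereas Atoh1 and Spdef, with log2 fold changes of -0.20 and -0.14, did not pass. After DEX alone no member passed, and 0.00847% of all tested genes did. When DEX preceded TNF, Bhlha15 stood 3.41-fold above its level after TNF alone, a call that was lost when any of several libraries was left out. In DEX+TNF 3 and 4, the TNF check genes Nfkbia and Tnfaip3 lay at or near the levels of mice without TNF (below). Without these 2 libraries Bhlha15 was not called (log2 fold change 1.83, adjusted p = 0.17 in edgeR).

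The stretches just upstream of the 3 genes that fell are shown so that their sequences can be compared with the values that follow. Each is the 250 bases before the start of the canonical transcript in GENCODE M39, on the GRCm39 assembly and 5′ to 3′ along the gene. Bhlha15 is at chr5:144126836-144127085 (plus strand), Gfi1 at chr5:107872210-107872459 (minus strand) and Foxa2 at chr2:147889006-147889255 (minus strand). None of these windows held a base of an annotated exon of its gene. The Gfi1 window lies inside the gene, between exons of its longer transcripts.
Bhlha15: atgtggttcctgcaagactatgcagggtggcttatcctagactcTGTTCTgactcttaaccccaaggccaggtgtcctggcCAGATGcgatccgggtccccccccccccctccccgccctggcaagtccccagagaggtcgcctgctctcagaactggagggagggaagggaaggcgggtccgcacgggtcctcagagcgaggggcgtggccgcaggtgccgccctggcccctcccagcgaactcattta
Gfi1: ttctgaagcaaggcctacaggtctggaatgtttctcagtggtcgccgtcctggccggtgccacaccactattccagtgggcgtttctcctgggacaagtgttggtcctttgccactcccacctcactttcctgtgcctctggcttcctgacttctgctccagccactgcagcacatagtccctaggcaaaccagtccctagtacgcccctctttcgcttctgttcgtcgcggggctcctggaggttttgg
Foxa2: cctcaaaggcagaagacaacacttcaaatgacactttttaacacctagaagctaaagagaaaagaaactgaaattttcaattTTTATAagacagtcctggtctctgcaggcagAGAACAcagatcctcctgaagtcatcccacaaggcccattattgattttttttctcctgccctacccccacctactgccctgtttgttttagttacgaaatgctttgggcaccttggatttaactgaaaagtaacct

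Capitals mark matches, on either strand, to AGAACA (a half-site of the glucocorticoid receptor), CAGCTG and CAGATG (E-boxes, the sites of bHLH factors such as ATOH1), TATAAA (the TATA box) or the 10-base NF-kB motif. The Bhlha15 window held an AGAACA match that began 206 bases before the start and CAGATG at 169 bases. The Foxa2 window held AGAACA at 137 bases and TATAAA, on the opposite strand, at 168 bases. The Gfi1 window held none of these motifs. Among the other members, AGAACA also stood in the windows of Spdef (192 bases) and Hnf4g (78 bases), neither of which was called in any comparison. CAGCTG stood in those of Creb3l1, Cdx2 and Gata4.

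Among the upstream windows of 21770 protein-coding genes, 14.3% held AGAACA, 11.9% CAGCTG, 13% CAGATG and 11.9% TATAAA. The NF-kB motif stood in 4.23% of them and in none of the 10 windows of the members. A further motif, ACGTG (the core that XBP1 binds, not capitalized), was in 17% of all windows and in those of Spdef and Creb3l1. These matches describe letters in a window and no binding was measured.

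The libraries held 7286307 to 15832111 counts. Alpha-defensin (Defa) genes, the products of Paneth cells, took 32.2% to 59.3% of them, and stromal markers summed to at most 1.05 normalized CPM (counts scaled by library size). The summed markers of other cells ran from 2441 to 8962 CPM for goblet cells, 17.3 to 412 for enterocytes, 11.7 to 58.4 for enteroendocrine cells, 0.162 to 692 for tuft cells, 502 to 1573 for stem cells, 36.1 to 176 for cycling cells and 23.15 to 115 for immune cells. Of the immune markers, Cd3e, Cd3g, Cd8a, Gzma and Gzmb were at 0 in all libraries. Lyz2 averaged 42.6 to 71.6 CPM over the groups, whereas Ptprc averaged 0.387 to 6.72 CPM. Csf1r and Cd79a reached at most 0.499 and 0.149 CPM in a library. PBS+PBS 4 and PBS+TNF 1 had the lowest scaling factors (0.503 and 0.418) and the highest Defa shares (54.5% and 59.3%).

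The TNF label was checked with Nfkbia and Tnfaip3, which NF-kB induces. Nfkbia was at 277 to 337 CPM in PBS+TNF and at 15.6 to 27.3 CPM in the 8 libraries without TNF. In DEX+TNF it was at 330 and 382 CPM in libraries 1 and 2, but at 28.3 and 41.0 CPM in libraries 3 and 4. Tnfaip3 split the same way, with 115 and 110 CPM against 2.25 and 7.38 CPM. The libraries labelled DEX+TNF 3 and DEX+TNF 4 thus lay at or near the levels of mice without TNF. Counts of calls by edgeR that rest on DEX+TNF are given with and without them. Without them the group rests on DEX+TNF 1 and 2, the most alike of all pairs within groups. Chi-square per degree of freedom between their counts was 8.78, against 23.5 to 344 in the other pairs. Whether these 2 came from separate animals is not given in the labels. DEX+TNF 4 further held the highest tuft, enterocyte, stem and cycling sums of all libraries (692, 412, 1573 and 176 CPM).

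The DEX label was checked with glucocorticoid-induced genes. Sgk1 averaged 2.45 CPM in PBS+PBS, 6.20 in PBS+TNF, 32.7 in DEX+PBS and 51.4 in DEX+TNF, and it passed the test in both comparisons that differ by DEX. Fkbp5 (13.0, 21.2, 62.9 and 66.8 CPM in the same order) passed in neither. Tsc22d3 (12.6, 6.08, 23.2 and 24.1 CPM) passed in DEX+TNF versus PBS+TNF and not in DEX+PBS versus PBS+PBS. Over the DEX+TNF libraries, Sgk1 ran from 24.8 to 115 CPM, Fkbp5 from 43.2 to 135 CPM and Tsc22d3 from 10.7 to 49.4 CPM. Without DEX+TNF 3 and 4, 0% of all genes passed in DEX+TNF versus PBS+TNF. Sgk1 was then at an adjusted p of 0.17 and Tsc22d3 at 0.31 in edgeR. In the same fit Fkbp5 passed in DEX+PBS versus PBS+PBS (adjusted p = 0.0475 in edgeR), as did Sgk1.

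Levels of different members were compared per length of exon, in the 4 PBS+PBS libraries. Bhlha15 stood first at 58.6 ± 19.5 CPM per kb (SD, n = 4), followed by Atoh1 at 50.5 ± 3.85, Spdef at 43.3 ± 6.04, Creb3l1 at 38.3 ± 11.5 and Hnf4a at 28.1 ± 6.91. Each of these overlapped its neighbor in the order, so neighboring ranks are not separated. All Atoh1 and Spdef libraries (lowest 46.8 and 35.1 CPM per kb) lay above all Hnf4a libraries (highest 32.9). Cdx2 (12.4 ± 1.02) lay below all Hnf4a libraries and above all Gfi1 libraries without overlap.

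The lower end of the order held Gfi1 at 5.41 ± 1.81 CPM per kb, Foxa2 at 4.89 ± 1.37, Gata4 at 3.32 ± 0.918 and Hnf4g at 2.08 ± 0.349, again with overlapping neighbors. All Gfi1 and Foxa2 libraries (lowest 3.51 and 3.29) lay above all Hnf4g libraries (highest 2.60). Dividing by the longest transcript exchanged only Atoh1 (50.5) and Spdef (51.9). Genes of both roles were thus found among the higher and the lower levels, and the 3 genes that fell after TNF came from both ends.

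**Figure D1:**
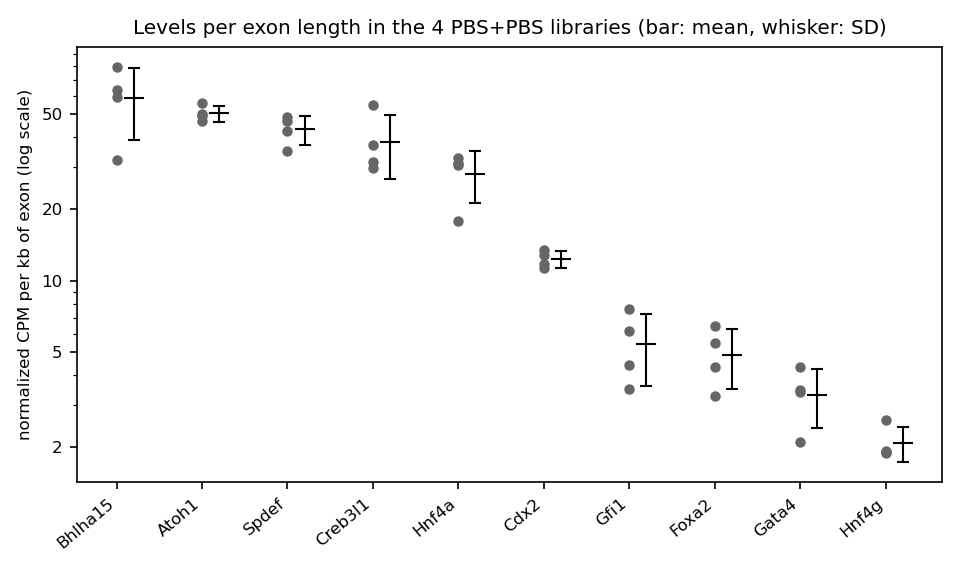
Normalized CPM per kb of exon (log scale) for the 10 members, ordered by mean, in the 4 PBS+PBS libraries. Points are libraries, the bar is the mean and the whisker the SD. The 5 genes from Bhlha15 to Hnf4a lie apart from the 4 lowest, with Cdx2 between them.

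The first comparison asked what TNF does to the members without DEX. Of all tested genes, 12.5% were called (5.35% lower and 7.15% higher), at an adjusted p under 0.05 in edgeR. With upper-quartile scaling the higher calls were 46.3% of all calls in place of 57.2%, and over all genes the median was -0.15 in place of -0.03 (log2). Of the 10 members 3 were called lower and 0 higher. Of the stem cell markers, 2 of the 6 tested were lower as well: Lgr5 had a log2 fold change of -1.58 (adjusted p = 0.014 in edgeR) and Smoc2 of -0.80 (adjusted p = 0.021). Both calls were lost without PBS+PBS 1 (adjusted p = 0.061 and 0.062 in edgeR), and that of Smoc2 also without PBS+PBS 3 (0.061), PBS+TNF 1 (0.054) or PBS+TNF 3 (0.073). The 6 stem markers had a median log2 fold change of -0.98, and 3 had an unadjusted p under 0.05 in edgeR (26.4% of all genes). The fit without DEX+TNF 3 and 4 also called Axin2 lower (-1.15, adjusted p = 0.024 in edgeR). The summed stem markers were at 796 to 1072 CPM in PBS+PBS and at 502 to 1126 CPM after TNF. The part of stem cells in the values of the members was not tested. No Paneth, goblet, enterocyte, tuft, cycling or immune marker tested was called, and of the enteroendocrine markers only Tac1, which was higher. In 4 members, Creb3l1 among them, the groups were separate, with all PBS+TNF libraries below all PBS+PBS libraries, which 8.64% of tested genes showed. In these bulk libraries, fewer cells of a type and less RNA per cell cannot be told apart.

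Bhlha15 (ENSMUSG00000052271, chr5:144127086-144131259), a bHLH factor that scales up the secretory apparatus, had 279, 223, 207 and 113 CPM in PBS+PBS. After TNF it had 17.9, 44.9, 38.3 and 31.3 CPM. Every TNF library lay below the lowest control library. The fall was 2.63 on the log2 scale (SE 0.309, 95% interval -3.28 to -1.98, adjusted p = 0.00021 in edgeR). Bhlha15 shares sequence with Tecpr1 on the opposite strand, which had 6398 counts over all libraries against 32835 of Bhlha15. Tecpr1 also fell, by 0.86 (adjusted p = 0.021 in edgeR), a call lost without PBS+PBS 2 (0.057), PBS+PBS 3 (0.075), PBS+TNF 1 (0.055) or PBS+TNF 3 (0.063). Whether counting used strand is not stated, so the split of reads in the shared stretch is uncertain.

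Gfi1 (ENSMUSG00000029275, chr5:107864523-107873902), a zinc finger repressor that acts downstream of ATOH1, had 24.2, 14.04, 19.6 and 11.2 CPM in PBS+PBS. After TNF its levels were 1.35, 5.37, 4.29 and 5.05 CPM, again without overlap. It fell by 2.05 on the log2 scale (SE 0.356, 95% interval -2.80 to -1.30, adjusted p = 0.0020 in edgeR). The lowest value rests on 7 counts, with an exact Poisson 95% interval of 2.81 to 14.4 counts that covers counting error only.

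Foxa2 (ENSMUSG00000037025, chr2:147884797-147889005), a forkhead factor of secretory differentiation, had 21.9, 18.5, 14.8 and 11.2 CPM in PBS+PBS and 3.08, 6.69, 5.13 and 4.31 CPM after TNF. The groups did not overlap. It fell by 1.77 on the log2 scale (SE 0.295, 95% interval -2.39 to -1.14, adjusted p = 0.0015 in edgeR).

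Creb3l1 (chr2:91812673-91854917), a membrane-bound factor of secretory cells, was the other member whose groups did not overlap. It had 101, 148, 85.2 and 80.3 CPM in PBS+PBS and 31.4, 68.7, 65.2 and 76.0 CPM after TNF. A log2 fold change of -0.78 (SE 0.293) did not pass (adjusted p = 0.093 in edgeR). It passed with upper-quartile scaling, where the value was -0.89 (adjusted p = 0.048 in edgeR).

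Atoh1 (chr6:64706109-64708229), the factor that starts the secretory program, had 99.3, 119, 106 and 105 CPM in PBS+PBS. After TNF it had 61.8, 109, 110 and 92.3 CPM. PBS+TNF 1 was the lowest, and the groups overlapped. The log2 fold change was -0.20 (95% interval -0.78 to 0.39, adjusted p = 0.72 in edgeR).

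Spdef (chr17:27933326-27947929), which matures goblet and Paneth cells, had 81.0 to 112 CPM in PBS+PBS and 68.8 to 109 CPM after TNF, a log2 fold change of -0.14 (95% interval -0.62 to 0.34, adjusted p = 0.77 in edgeR). The value changed sign, to 0.02, without PBS+PBS 4 and PBS+TNF 1.

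A ratio within a library does not depend on how libraries were scaled. Per 100 counts of Atoh1, Bhlha15 had 193 ± 70.3 counts in PBS+PBS and 34.7 ± 4.93 after TNF (SD, n = 4 each). Gfi1 had 16.3 ± 6.34 and 4.11 ± 1.44, and Foxa2 had 15.6 ± 4.80 and 5.11 ± 0.690. The ratios did not overlap between these groups for any of the 3 genes. These genes already did not overlap in CPM and Atoh1 changed little, so the ratios, added after seeing the data, are a description and no separate test. Creb3l1 had 95.8 ± 22.4 and 63.8 ± 13.4, and its ranges overlapped, with 76.7 as the lowest control value and 82.4 as the highest value after TNF.

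**Figure D2:**
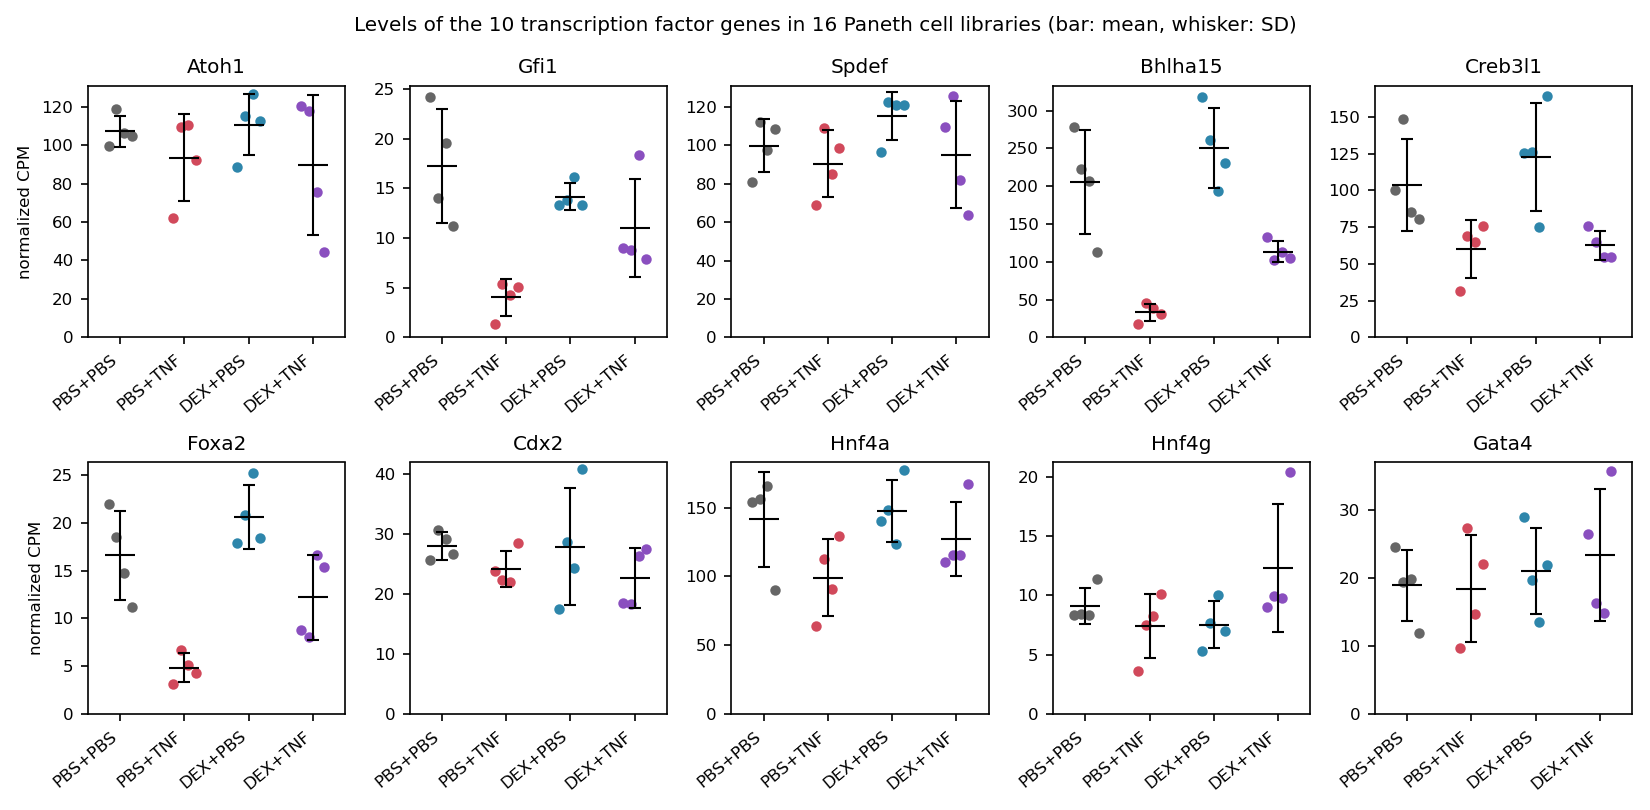
Normalized CPM of the 10 members in all 16 libraries, by group. Points are libraries, the bar is the mean and the whisker the SD. For Gfi1, Bhlha15 and Foxa2 all PBS+TNF points lie below all PBS+PBS points, and the identity genes in the lower row from Cdx2 on overlap between these groups.

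The identity genes had log2 fold changes between -0.51 and -0.03 after TNF. Hnf4a (chr2:163348728-163414830), a nuclear receptor, had 154, 157, 166 and 89.9 CPM in PBS+PBS and 64.2, 112, 91.1 and 129 CPM after TNF, a log2 fold change of -0.51 (95% interval -1.05 to 0.02, adjusted p = 0.21 in edgeR). Library PBS+PBS 4 lay inside the TNF range. Cdx2 (chr5:147237615-147244091) had 25.7 to 30.7 CPM and then 22.0 to 28.5 CPM, a log2 fold change of -0.22 (95% interval -0.70 to 0.27).

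Hnf4g (chr3:3573084-3724860), the close relative of Hnf4a, had 8.31 to 11.4 CPM in PBS+PBS and 3.66 to 10.2 CPM after TNF, with a log2 fold change of -0.27 (95% interval -0.93 to 0.39). Gata4 (chr14:63436362-63509141) had 11.9 to 24.6 CPM and 9.63 to 27.3 CPM, with a log2 fold change of -0.03 (95% interval -0.75 to 0.69). Its sign depended on which library was left out. Each library held at least 50 counts of Gata4.

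PBS+TNF 1 had the lowest level of its group in Atoh1, Gfi1, Spdef, Bhlha15, Creb3l1, Foxa2, Hnf4a, Hnf4g and Gata4. Without PBS+TNF 1 and PBS+PBS 4 the log2 fold changes of the 3 called genes were -2.62 for Bhlha15, -1.96 for Gfi1 and -1.77 for Foxa2. All 3 remained called.

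The second comparison asked what DEX does on its own. One of all tested genes was called (0.00847%), and no member was. None of the 10 had an unadjusted p under 0.05 in edgeR, and DESeq2 called 0. Log2 fold changes ran from -0.29 for Gfi1 to 0.31 for Foxa2, with 0.29 for Bhlha15. Bhlha15 had 318, 261, 193 and 230 CPM in DEX+PBS, a range that overlapped that of PBS+PBS. Gfi1 had 13.3 to 16.1 CPM and Foxa2 17.8 to 25.2 CPM. The 95% interval for Bhlha15 was -0.33 to 0.90, that for Gfi1 -0.998 to 0.42 and that for Foxa2 -0.29 to 0.90.

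The third comparison set DEX+TNF against PBS+TNF, which asks what a preceding DEX injection changes in mice that received TNF. It shares the PBS+TNF libraries with the first comparison. Of all tested genes, 0.22% were called higher, and of the members Bhlha15 alone was. No member and 0% of all genes were called without DEX+TNF 3 and 4, and 3 members had an unadjusted p under 0.05 (9.87% of all genes had). All DEX+TNF libraries lay above all PBS+TNF libraries in 3 members, the pattern of 3.47% of tested genes. DESeq2 called 2.32% of tested genes and 3 members.

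Bhlha15 had 133, 103, 113 and 105 CPM in DEX+TNF. These values lay close together, above the 17.9 to 44.9 CPM of PBS+TNF and below the 193 to 318 CPM of DEX+PBS. Over PBS+TNF the log2 fold change was 1.77 (SE 0.300, 95% interval 1.14 to 2.40, adjusted p = 0.028 in edgeR). The call was lost without DEX+TNF 3 (adjusted p = 0.071 in edgeR) or DEX+TNF 4 (0.066), and without any of PBS+TNF 1 (0.085), 2 (0.067), 3 (0.093) or 4 (0.088). Without both DEX+TNF 3 and 4 the log2 fold change was 1.83 (adjusted p = 0.17 in edgeR). Over all alternatives it stayed between 1.57 and 1.98.

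Gfi1 had 8.95, 8.81, 18.4 and 7.88 CPM in DEX+TNF, all above the 5.37 CPM that was the highest after TNF alone. The log2 fold change was 1.39 (SE 0.352, adjusted p = 0.098 in edgeR, not called). DESeq2 called it, at an adjusted p of 0.011. Without DEX+TNF 3 and 4 the value was 1.08 (adjusted p = 0.41 in edgeR).

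Foxa2 had 8.79, 8.004, 16.6 and 15.4 CPM in DEX+TNF, against at most 6.69 CPM after TNF alone. The higher pair is the libraries with low Nfkbia. Its log2 fold change of 1.32 (SE 0.293) was not called (adjusted p = 0.067 in edgeR). DESeq2 called it (0.0038), as did edgeR without DEX+TNF 1 (0.042), DEX+TNF 2 (0.029) or PBS+PBS 4 (0.040). Without DEX+TNF 3 and 4 the value was 0.78 (adjusted p = 0.45 in edgeR).

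Hnf4g, an identity gene, had an unadjusted p of 0.036 in edgeR and a log2 fold change of 0.71 (adjusted p = 0.37). Its levels in DEX+TNF were 9.03, 9.94, 9.80 and 20.4 CPM. The highest value is that of DEX+TNF 4, the library with the highest tuft, enterocyte, stem and cycling sums, and without it the log2 fold change was 0.35. Without DEX+TNF 3 and 4 it was 0.33 (adjusted p = 0.68 in edgeR). The part of other cells in this value was not tested. The 6 other members had log2 fold changes from -0.09 to 0.36, all uncalled.

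**Figure D3:**
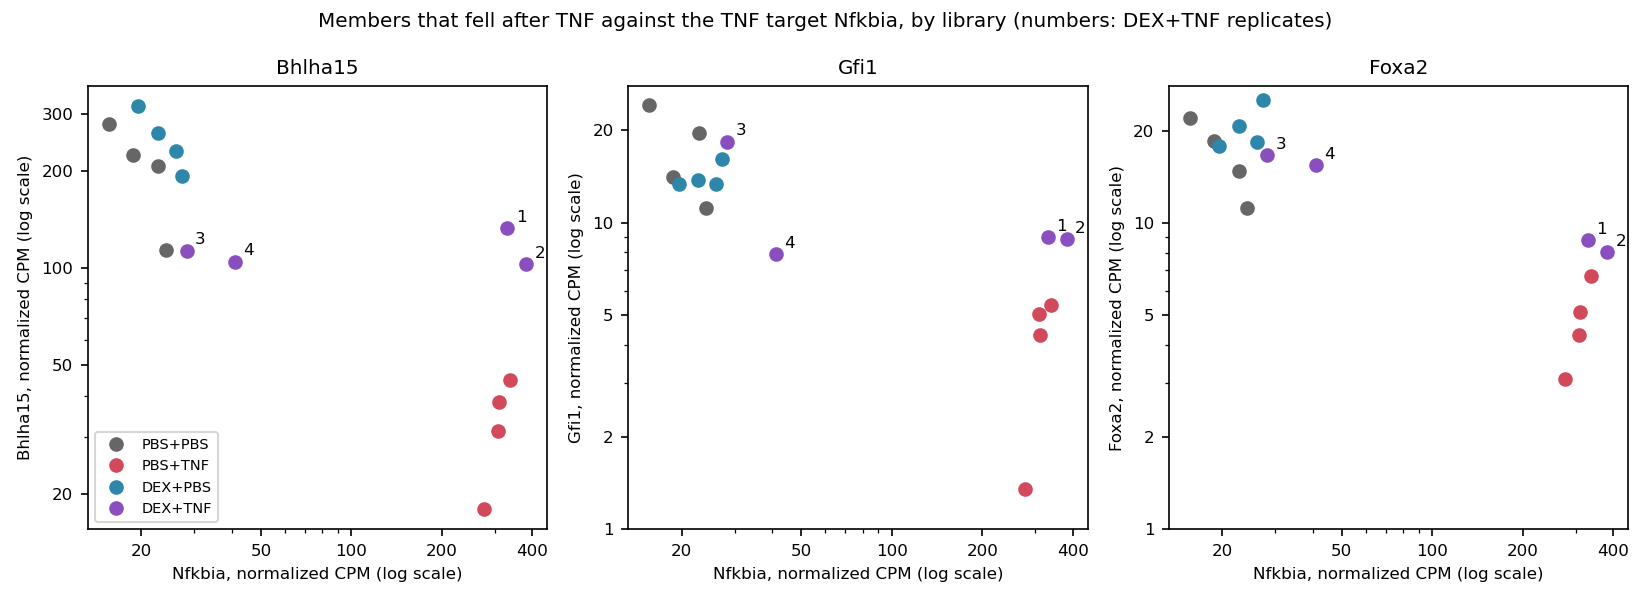
Bhlha15, Gfi1 and Foxa2 against Nfkbia in each library (normalized CPM, log scales on both axes). Colors give the group and numbers the DEX+TNF replicates. DEX+TNF 1 and 2 lie with PBS+TNF along the Nfkbia axis and above it in all 3 genes, and DEX+TNF 3 and 4 lie at or near the Nfkbia levels of mice without TNF.

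The plot against Nfkbia shows how the members stood in libraries with and without a TNF response. DEX+TNF 1 and 2, with Nfkbia at or above most PBS+TNF libraries, had Bhlha15 at 133 and 103 CPM, which is over the highest PBS+TNF value of 44.9 CPM. DEX+TNF 3 and 4, with low Nfkbia, had Bhlha15 at 113 and 105 CPM. That is at the level of PBS+PBS 4 (113 CPM), the lowest library without TNF, and below the others.

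The fourth comparison set DEX+TNF against DEX+PBS, the TNF effect in mice that had received DEX. Of all tested genes 0.339% were called, and 0 of the 10 members. By unadjusted p, 4 members were under 0.05 in edgeR (10.4% of all genes were), and DESeq2 called 2 members (Bhlha15 and Creb3l1) with 2.19% of all tested genes. All DEX+TNF libraries lay below all DEX+PBS libraries in 2 members, Bhlha15 and Foxa2, against 2.63% of tested genes. With DEX+TNF 3 and 4 left out, 1 member and 10.5% of all genes were called.

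Bhlha15 had a log2 fold change of -1.14 (SE 0.294, 95% interval -1.76 to -0.52, adjusted p = 0.12 in edgeR), and -1.09 without DEX+TNF 3 and 4 (adjusted p = 0.075). Creb3l1 had 125, 126, 74.8 and 164 CPM in DEX+PBS and 76.0, 64.6, 54.8 and 55.0 CPM in DEX+TNF. Its log2 fold change was -0.97 (SE 0.294, adjusted p = 0.18 in edgeR), and -0.80 without DEX+TNF 3 and 4 (again adjusted p = 0.18). One DEX+PBS library, the third, lay within the DEX+TNF range.

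Foxa2 had a log2 fold change of -0.75 (SE 0.283, adjusted p = 0.31 in edgeR). Without DEX+TNF 3 and 4 it was -1.29 and called (adjusted p = 0.015 in edgeR), which rests on the closely alike DEX+TNF 1 and 2. Hnf4g had 0.71 (adjusted p = 0.43), which became 0.36 without DEX+TNF 4 and 0.33 without both (adjusted p = 0.57). Gfi1 had -0.37 (95% interval -1.09 to 0.35, adjusted p = 0.82) and, without both, -0.67 (adjusted p = 0.28).

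The interaction tested whether the TNF effect differed with the first injection. None of the 10 members and 0% of all tested genes were called in edgeR. By unadjusted p, 4 members were under 0.05 (5.44% of all genes were), and DESeq2 called none of them. Again none was called when DEX+TNF 3 and 4 were left out, and 2 members were under 0.05 (5.51% of all genes were). The log2 differences of the TNF effects (after DEX minus after PBS) were 1.68 for Gfi1 (95% interval 0.66 to 2.71, adjusted p = 0.73), 1.49 for Bhlha15 (0.61 to 2.36, adjusted p = 0.73), 1.01 for Foxa2 (0.16 to 1.87, adjusted p = 0.86) and 0.98 for Hnf4g (0.05 to 1.92, adjusted p = 0.88). Without DEX+TNF 3 and 4 they were 1.37, 1.54, 0.47 and 0.60. A difference of the TNF effect by DEX was thus not shown for any member.

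**Figure D4:**
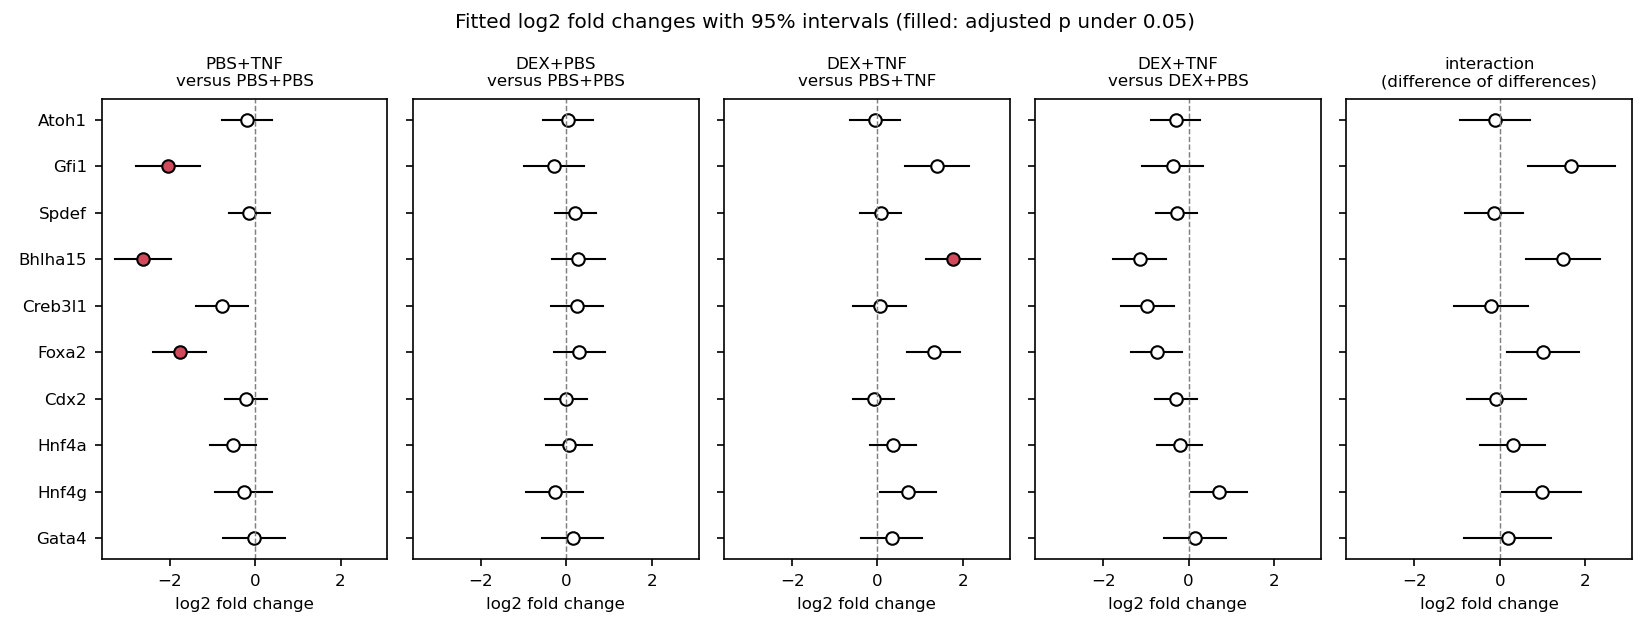
Fitted log2 fold changes of the 10 members with 95% intervals, in the 4 pairwise comparisons and the interaction. Filled points passed at an adjusted p under 0.05 in edgeR. Gfi1, Bhlha15 and Foxa2 are filled for TNF alone, and Bhlha15 alone in DEX+TNF versus PBS+TNF.

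The other genes of the Notch and secretory pathway were read from a list of 20, of which 16 were tested (Hey1, Neurog3, Neurod1 and Insm1 were too low). After TNF alone 2 fell and none rose, which is 12.5% of the list, the same share as among all tested genes (12.5%). DESeq2 called 4 (17.5% of all genes), and 6 had an unadjusted p under 0.05 in edgeR (26.4% of all genes). The fit without DEX+TNF 3 and 4, which shares 1 estimate of spread over the remaining libraries, called 6 of the 16 and 17.7% of all genes. The 16 had a median log2 fold change of -0.37 against -0.03 for all genes. Dll4, the Notch ligand that Paneth cells show to neighboring stem cells, had 31.7, 27.6, 24.99 and 13.1 CPM in PBS+PBS and 1.54, 5.18, 5.41 and 6.49 CPM after TNF. It fell by 2.33 on the log2 scale (SE 0.444, adjusted p = 0.0032 in edgeR). Klf4, a zinc finger factor of goblet cells, fell by 0.85 (SE 0.250, adjusted p = 0.034 in edgeR), from 37.1 to 43.5 CPM to between 10.2 and 27.4 CPM. Its call was lost without any of PBS+PBS 1 (adjusted p = 0.081 in edgeR), 2 (0.059) or 3 (0.074) or PBS+TNF 3 (0.057).

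In the other 4 comparisons edgeR called no gene of the list. By unadjusted p under 0.05 there were 0 after DEX alone (1.9% of all genes) and 2 in each of the others, where the shares of all genes were 11.9% in DEX+TNF versus PBS+TNF and those given above. DESeq2 called 2 in DEX+TNF versus PBS+TNF (2.32% of all genes) and none in the others. With those 2 libraries of DEX+TNF (3 and 4) left out, edgeR called 5 of the 16 in DEX+TNF versus DEX+PBS (10.5% of all genes): Dll1, Dll4 and Sox4 lower and Foxa1 and Sox9 higher. It called none in DEX+TNF versus PBS+TNF or the interaction, where 4 and 2 had an unadjusted p under 0.05 (9.87% and 5.51% of all genes). Dll4 had 7.74, 5.26, 24.4 and 16.1 CPM in DEX+TNF. Its higher pair, like that of Foxa2, is the libraries with low Nfkbia. Over PBS+TNF the log2 fold change was 1.46 (adjusted p = 0.17 in edgeR), and 0.42 without these 2 libraries (adjusted p = 0.67). Against DEX+PBS it was -2.06 without them (adjusted p = 0.0052 in edgeR).

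The other genes of intestinal identity were a list of 15, all tested. After TNF alone 2 rose and 1 fell, 20% of the list beside 12.5% of all tested genes, with a median of 0.20. DESeq2 called 5 of the 15 (17.5% of all genes), and 8 had an unadjusted p under 0.05 in edgeR (26.4% of all genes). The fit that left out DEX+TNF 3 and 4 called 4 (17.7% of all genes). Klf5, a factor of crypt epithelium, rose by 1.47 on the log2 scale (SE 0.284, adjusted p = 0.0036 in edgeR), from 40.1 to 65.1 CPM to between 132 and 178 CPM. Elf3, an epithelial ETS factor, rose by 1.21 (SE 0.338, adjusted p = 0.026 in edgeR), from 74.2 to 115 CPM to between 173 and 289 CPM. Its call was lost without any of PBS+PBS 1 (adjusted p = 0.064 in edgeR), 2 (0.052) or 4 (0.060) or PBS+TNF 2 (0.063) or 4 (0.069). Gata5, a relative of Gata4, fell by 1.23 (SE 0.261, adjusted p = 0.0059 in edgeR), from 24.996 to 38.8 CPM to between 8.09 and 16.9 CPM. In the other comparisons neither edgeR nor DESeq2 called any of the 15. By unadjusted p under 0.05 in edgeR there were 1 after DEX alone, 3 in each comparison with DEX+TNF and 0 in the interaction. The shares of all genes were 1.9% after DEX alone, 11.9% against PBS+TNF, 10.4% against DEX+PBS and 5.44% in the interaction. When DEX+TNF 3 and 4 were left out, edgeR called 3 of the 15 higher, Elf3 and Klf5 among them, in DEX+TNF versus DEX+PBS. Of all 12223 genes in that fit, 880 were called higher, and 10.5% were called in either direction. It called none in DEX+TNF versus PBS+TNF or the interaction, where 1 and 0 had an unadjusted p under 0.05 (9.87% and 5.51% of all genes).

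**Figure D5:**
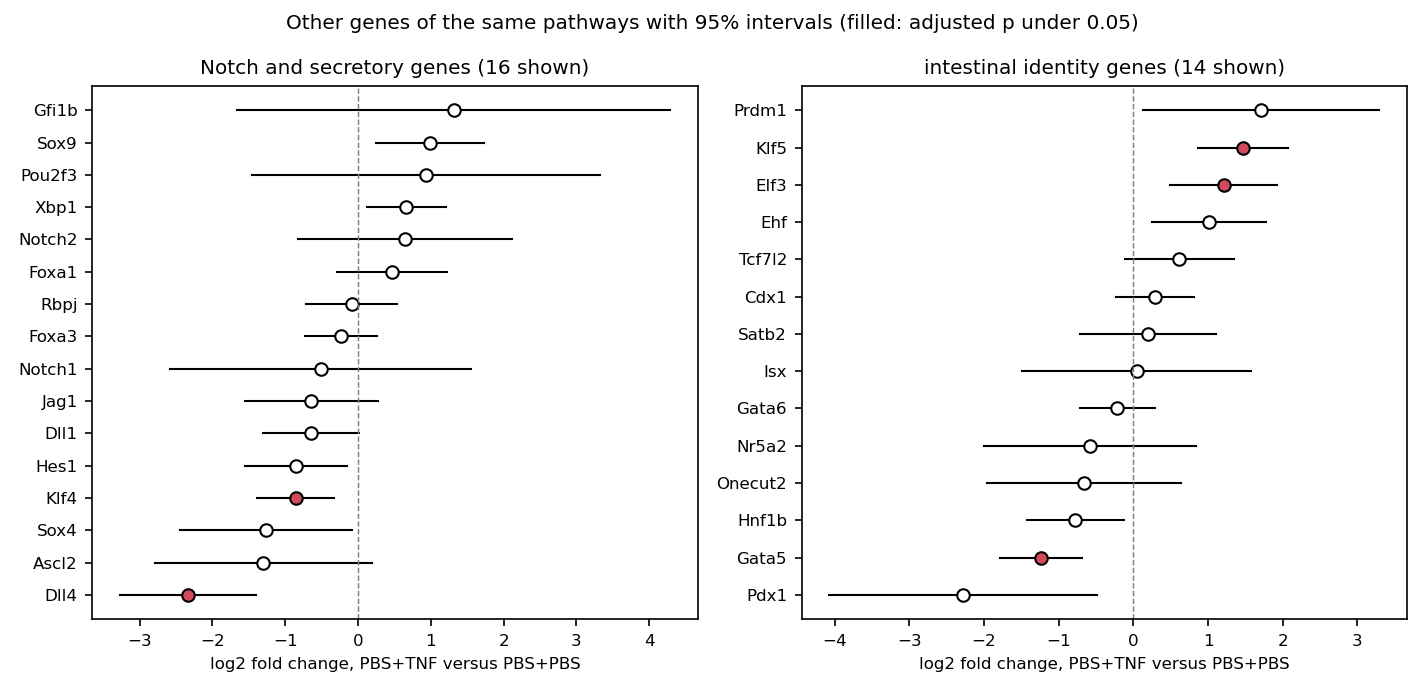
Log2 fold changes of the tested Notch and secretory genes (left, 16) and of 14 of the 15 other identity genes (right) for PBS+TNF versus PBS+PBS, with 95% intervals. Filled points passed at an adjusted p under 0.05. Dll4 and Klf4 lie to the left of 0 in the left panel, and Gata5 lies to the left and Klf5 and Elf3 to the right in the right panel.

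Genes known to be driven by the members were read as well. Of 5 genes linked to ATOH1, SPDEF or BHLHA15, 4 were tested (Rab26 was too low). None was called in any comparison, none had an unadjusted p under 0.05 in edgeR, and DESeq2 called none. Leaving out DEX+TNF 3 and 4, edgeR again called none, and 2 had an unadjusted p under 0.05 in DEX+TNF versus PBS+TNF (9.87% of all genes). After TNF alone, Spink4, a secreted goblet and Paneth product, had a log2 fold change of 0.33 (95% interval -1.03 to 1.69). Agr2, an isomerase of the endoplasmic reticulum, had 0.45 (-1.12 to 2.01), and Rab3d, a GTPase of secretory granules that BHLHA15 induces, had -0.44 (-0.91 to 0.02).

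Of 11 genes linked to the HNF4 factors, CDX2 or GATA4, 9 were tested (Lct and Slc10a2 were not). None was called by edgeR or DESeq2 in any comparison. By unadjusted p under 0.05 there were 0 after TNF alone, 1 after DEX alone, 2 in DEX+TNF versus PBS+TNF, 1 in DEX+TNF versus DEX+PBS and 4 in the interaction. The shares of all genes, in the same order, were 26.4%, 1.9%, 11.9%, 10.4% and 5.44%. After TNF alone, Vil1, which bundles actin in microvilli, had a log2 fold change of -0.02 (95% interval -0.52 to 0.47) and Cdh17, an intestinal cadherin, had 0.11 (-0.38 to 0.59). Apob, of lipoprotein export, had -1.06 (-2.52 to 0.40). The median log2 fold change of the 9 was -1.06 after TNF alone, but 0.58 without PBS+PBS 4, where the enterocyte markers summed to 280 CPM against 25.3 to 36.2 CPM in the other controls. It was 1.91 in DEX+TNF versus PBS+TNF and 2.36 in DEX+TNF versus DEX+PBS, and without DEX+TNF 4 these became -0.37 and -0.26. DEX+TNF 4 had an enterocyte marker sum of 412 CPM against 17.3 to 62.8 CPM in the other DEX+TNF libraries, and the part of such cells in the medians was not tested. Without both DEX+TNF 3 and 4, when 10 of the genes were tested, the medians were -3.59 and -1.65, and edgeR called none of the 10.

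How members moved together was described by Pearson's r of log2 CPM over the 16 libraries after group means were removed. The points share libraries and scaling factors, and the pairs named are the highest of many, so r is given as a description. Among the 45 pairs of members, Atoh1 and Spdef had the highest r (0.89), followed by Hnf4a with Gata4 (0.787) and Bhlha15 with Gata4 (0.733). Of the genes that fell after TNF, Gfi1 had 0.677 with Bhlha15 and 0.689 with Foxa2, and Bhlha15 had 0.543 with Foxa2. Atoh1 had -0.146 with Foxa2 and 0.296 with Bhlha15.

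Among the 11799 other tested genes, those most like each member were Sec22c (0.958) and Gm48226 (0.937) for Bhlha15, Vps41 (0.886) and Klhl24 (0.882) for Gfi1, and Fam210b (0.915) and Jade1 (0.891) for Foxa2. For Atoh1 they were Ttc39a (0.964) and Cldn15 (0.937), for Spdef Slc2a10 (0.955) and Bmp8a (0.912), and for Creb3l1 Slc29a2 (0.912) and Ckap4 (0.905). For the identity genes they were Arhgef39 (0.937) and Tox3 (0.912) for Cdx2, Eif4b (0.965) for Hnf4a, Slc28a2 (0.885) and Limd2 (0.876) for Hnf4g, and Mapk8ip1 (0.933) and Ulk2 (0.927) for Gata4. No gene was named for 2 members.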

How the data were processed

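RNA of sorted mouse Paneth cells was made into stranded mRNA libraries (16, in 4 groups of 4 by label). The authors deposited raw read counts per Ensembl gene. Per the labels and the methods of the study, reads were aligned with STAR (2.7.10a per the labels) to GRCm39 with the GENCODE M30 annotation, after FastQC 0.12. The counting program, its use of strand and of reads matching several genes are not given in the sources used here. Names and coordinates came from GENCODE M39 and matched 54749 of the 55414 identifiers. The 665 others carried 0.00519% of counts.

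The filterByExpr filter and TMM scaling of edgeR 4.0.16 (R 4.3.3) preceded its robust quasi-likelihood fit, with 1 mean for each group and all 16 libraries. From it came 5 contrasts, adjusted after Benjamini and Hochberg over all tested genes (called at adjusted p under 0.05). The method was tested on simulated data. Normalized CPM uses the TMM factors, and r used log2 CPM with a prior count of 2. SE is the size of a log2 fold change divided by the square root of F.

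Alternatives were DESeq2 1.42.0, other scalings, other filters, only the groups compared, a replicate block, a stricter threshold and leaving out libraries. Those added after seeing the data were leaving out PBS+PBS 4 with PBS+TNF 1, counts relative to Atoh1, and list counts without DEX+TNF 3 and 4 or 1 library. The members and gene lists were chosen with earlier results of these data known. Text names all members, listed pathway genes called in any contrast, the 3 most abundant targets of each list without calls, 5 check genes and, per member, the 2 most similar genes, of which 1 is not reported here. Depth sets the precision of low genes such as Gfi1. The main fit did not pair libraries by replicate number, and the labels do not say whether the numbers mark a batch. Between groups, 12 of 24 same-number pairs had deviations correlated above 0.1 (median 0.115, range -0.365 to 0.504). Of 72 pairs with other numbers, 20 did (median -0.0615, range -0.564 to 0.486).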

Additional observations from a re-analysis of the deposited data

Results flagged for a closer look

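In 7 of the 40 combinations of member and group, 1 library stood apart from the 3 others by Dixon's 95% criterion, which chance passes in about 1 in 20 groups. Gfi1 was at 18.4 CPM in DEX+TNF 3 against 7.88 to 8.95 CPM in the others of its group, and at 16.15 CPM in DEX+PBS 3 against 13.35 to 13.8 CPM. Spdef was at 96.6 CPM in DEX+PBS 1 against 121 to 122 CPM. Hnf4a was at 89.9 CPM in PBS+PBS 4 against 154 to 166 CPM, and Hnf4g in the same library was at 11.4 CPM against 8.31 to 8.43 CPM. In DEX+TNF 4, Hnf4a was at 168 CPM against 111 to 116 CPM and Hnf4g at 20.4 CPM against 9.03 to 9.94 CPM. The enterocyte marker sum was the highest of its group in both PBS+PBS 4 (280 CPM) and DEX+TNF 4 (412 CPM), and its part in these levels was not tested.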

How the results depend on the processing

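The 3 calls after TNF alone (Bhlha15, Gfi1 and Foxa2) held in all 26 alternatives with a test. In DEX+TNF versus PBS+TNF, where 1 member was called, DESeq2 called 3, no filter on low counts 2, only the libraries of the 2 groups 0, adjusted p under 0.01 0, leaving out DEX+TNF 3 and 4 together 0, and leaving out 1 library 0 to 2. In DEX+TNF versus DEX+PBS, with 0 called, DESeq2 called 2 and leaving out DEX+TNF 3 and 4 together 1. The cause was not tested. Over all genes, DESeq2 called 274 in place of 40, 259 in place of 40 and 7 in place of 1 (DEX+TNF versus PBS+TNF, DEX+TNF versus DEX+PBS, DEX+PBS versus PBS+PBS), and 9 in place of 0 for the interaction. In the first 2 of these the replicate block gave 16 and 0, only the libraries of the 2 groups 0 and 0, leaving out DEX+TNF 3 and 4 together 0 and 1286, and leaving out PBS+PBS 4 and PBS+TNF 1 together 8 and 1. No filter gave 6 in the second. Leaving out 1 library gave 916 to 1698 genes in PBS+TNF versus PBS+PBS (1476 with all), 0 to 2 in DEX+PBS versus PBS+PBS, 0 to 102 in DEX+TNF versus PBS+TNF, 0 to 362 in DEX+TNF versus DEX+PBS and 0 to 1 in the interaction.

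Of the 26 log2 fold changes given for members, 23 kept their sign. Of all 50 member log2 fold changes, 17, all uncalled, changed sign in at least 1 alternative. After TNF alone, Spdef was 0.019, Hnf4g 0.0621 and Gata4 0.014 without PBS+PBS 4 and PBS+TNF 1. Leaving out 1 library, Gata4 ran from -0.277 to 0.152 (0.12 without PBS+PBS 1, 0.152 without PBS+TNF 1 and 0.07 without PBS+TNF 3). Same-number libraries of different groups had a median r of deviations of 0.115, against -0.0615 for pairs with other numbers. With the replicate block the calls of members were as without it: after TNF alone 3, with Bhlha15 at -2.58, and in DEX+TNF versus PBS+TNF 1, Bhlha15 at 1.76. CPM of counts outside the Defa genes raised all 40 group levels by more than 1 SD, by construction.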
